A study of Mus musculus with 55 samples.

Results

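The insulin-like growth factor (IGF) system was followed in the optic nerve head (ONH) of the mouse after a crush of the optic nerve. It was represented by 10 genes chosen by name: the ligands Igf1 and Igf2, the receptor Igf1r, the binding proteins Igfbp2, Igfbp3, Igfbp4, Igfbp5, Igfbp6 and Igfbp7, and the related gene Igfbpl1. They are 10 of the 12393 genes that the array annotation pairs with a probe set of their own, and 23 of the 20380 probe sets of that kind. All mice were C57Bl/6 females that were 6 to 8 weeks old at surgery. The left optic nerve was crushed for 10 s about 1 mm behind the globe, and the right eye gave the contralateral control. Crushed and contralateral ONHs were taken 1 day and 3 days later, at 1 week and 3 weeks, and after 3 months, and naive ONHs came from mice without surgery. Each of the 11 conditions had 5 samples, and each sample pooled 2 ONHs. The crushed and the contralateral sample of a pair came from the left and the right eyes of the same mice. Samples with the same replicate number were taken as a pair, which their titles do not state.

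IGF1 and IGF2 are secreted growth factors that act through the tyrosine kinase receptor IGF1R, which recruits insulin receptor substrates and activates the PI3-kinase and AKT pathway. The binding proteins hold the ligands outside the cell and either limit or prolong their access to the receptor. Proteases such as pregnancy-associated plasma protein A cleave individual binding proteins and free the ligand. In the central nervous system Igf1 is expressed by some neurons and by activated microglia, while Igf2, an imprinted gene, is mainly expressed by the meninges and the choroid plexus. IGFBP7 binds the ligands weakly, and IGFBPL1 shares parts of its structure with the family.

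Transcripts were measured on 55 Affymetrix mouse genome arrays, and the values below are linear intensities unless they are called log2 values. Naive ONHs and all ONHs up to 3 weeks were processed together on 45 arrays, the first batch. The remaining 10 arrays, all from 3 months, were the second batch and are described on their own. The authors removed the sclera and the meningeal sheath at dissection, and the dissected ONH was a mixed tissue. Of the 16 astrocyte markers and the 22 markers of microglia and macrophages, at most 1 was below an intensity of 50 on any array, and none of the 14 oligodendrocyte markers or the 16 markers of meningeal fibroblasts was. Photoreceptor transcripts, which do not belong to the ONH, varied widely within every group, and their summed intensity ranged from 727 to 149528 over the 55 samples. In such a tissue, fewer cells of a type and less RNA per cell cannot be told apart. All 10 members were above an intensity of 50 in every sample by their brightest probe set, which represents a member below. Probe sets differ in their response, so intensities are compared within a gene only.

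A difference was called when its Benjamini-Hochberg adjusted p in limma was under 0.05 over all probe sets tested and the change was at least 2-fold. By this rule 1 member was higher and 3 were lower in the crushed ONH at 1 day, and of all 10763 genes tested 6.87% were higher and 8.2% lower. At 3 days 1 member was higher and 3 were lower, with 7% of all genes higher and 2.47% lower. At 1 week 1 member was higher and 1 lower, with 6.53% and 3.92% of all genes. At 3 weeks 2 members were higher and none was lower, with 2.76% and 1.77% of all genes. At 3 months none of the 10 was called by limma and 3 had an unadjusted p under 0.05, while of 10468 genes 0.506% were called and 14.9% had such a p. The crushed and the contralateral group did not overlap for 6 members at 1 day, 6 at 3 days, 3 at 1 week, 4 at 3 weeks and 2 at 3 months, and the same held for 47.3%, 31.9%, 23.3%, 18.3% and 7.39% of all genes. The median log2 fold change of the members lay between -0.26 at 1 day and 0.16 at 3 months, and that of all genes between -0.04 and 0.04. The members did not move as a block. Igf1 was called higher from 3 days to 3 weeks, Igfbp4 at 3 weeks and Igfbp3 at 1 day. Igf2 and Igfbp2 were called lower at 1 day and 3 days, and Igfbpl1 from 1 day to 1 week.

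**Figure D1:**
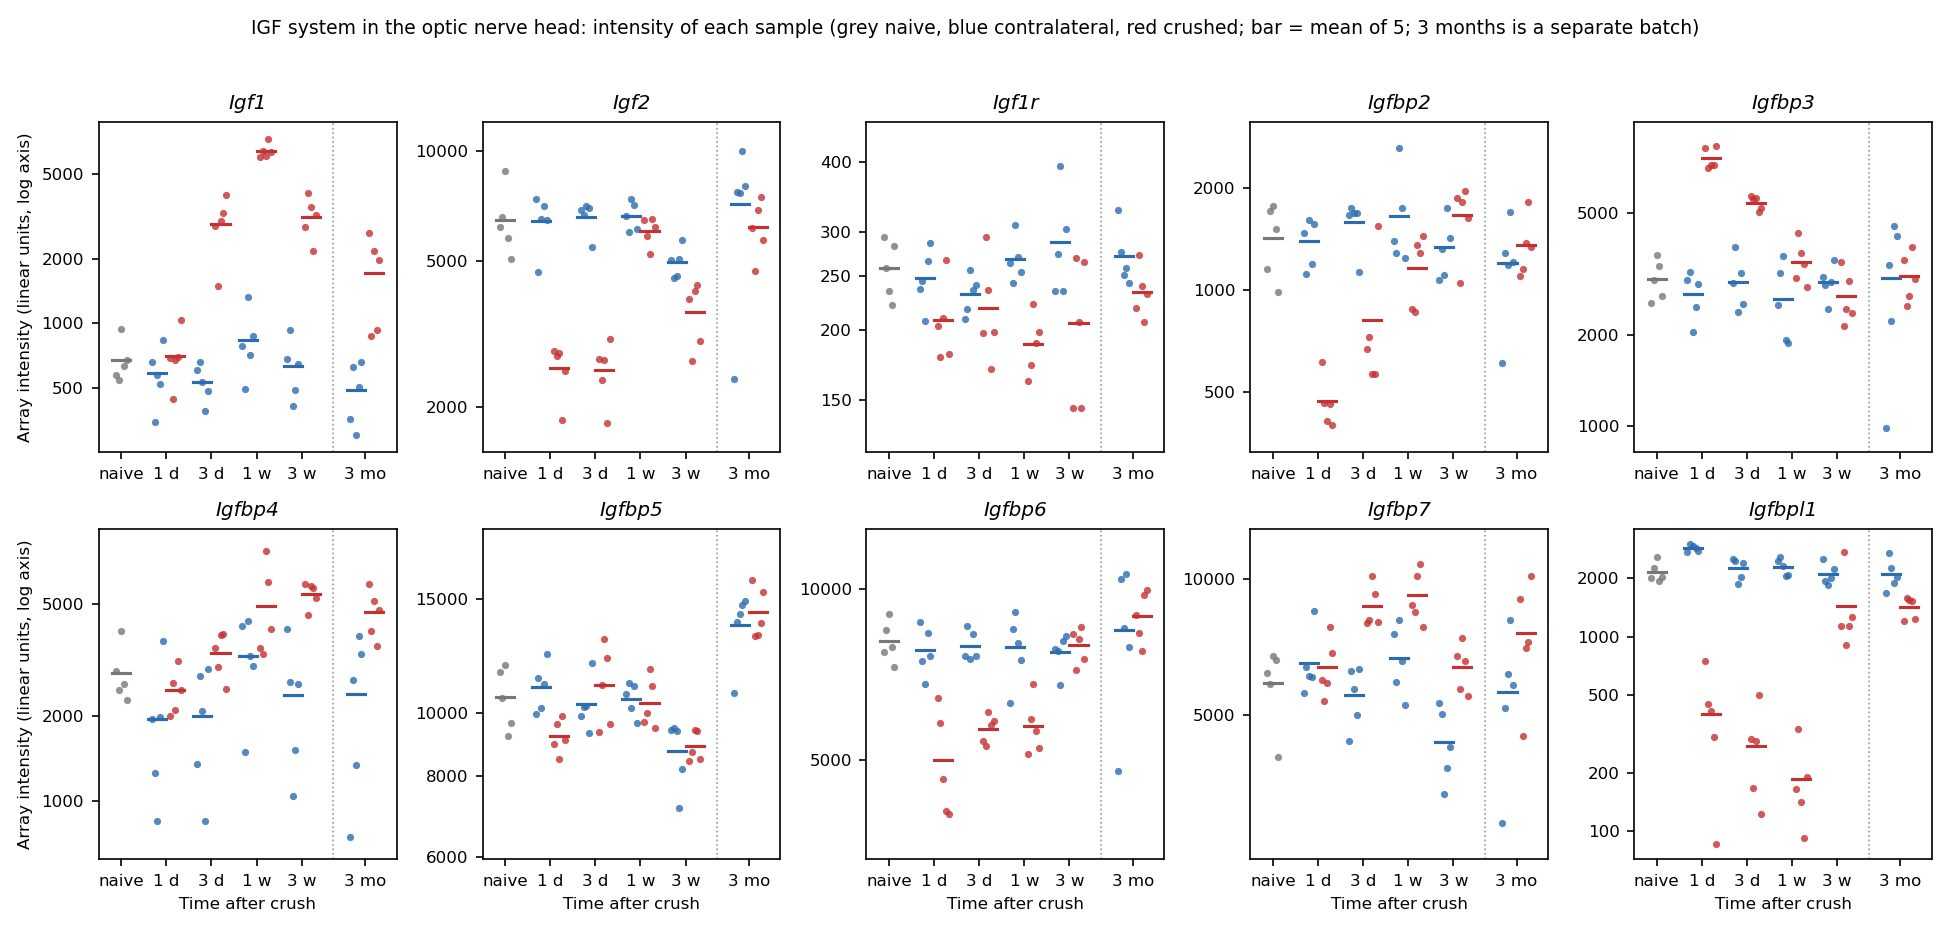
Array intensity (linear units on a log axis) of each member's brightest probe set in every sample, against time after crush. Grey points are naive, blue contralateral and red crushed samples, bars are means of 5 samples, and 3 months is a separate batch. Igf1 reached 5973 to 7303 in the crushed ONH at 1 week, and Igfbpl1 was between 92.3 and 336 there.

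The members called higher at 3 weeks were Igf1 and Igfbp4, and the 250 bases before the RefSeq start site of each are shown for that reason (build GRCm38.p6, plus strand). The Igf1 window is chr10:87860861-87861110 and the Igfbp4 window is chr11:99040994-99041243. Capitals mark a match to a TATA box (TATAAA), a GC box (GGGCGG), an AP-1 site (TGAGTCA) or a STAT site (TTCNNNGAA), searched on both strands, and no member window held more than 1 kind of these motifs.
Igf1: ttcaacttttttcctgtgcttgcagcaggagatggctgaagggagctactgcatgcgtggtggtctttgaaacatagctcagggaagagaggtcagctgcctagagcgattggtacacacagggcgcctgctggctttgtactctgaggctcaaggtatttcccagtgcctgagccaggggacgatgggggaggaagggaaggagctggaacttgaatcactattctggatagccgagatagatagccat
Igfbp4: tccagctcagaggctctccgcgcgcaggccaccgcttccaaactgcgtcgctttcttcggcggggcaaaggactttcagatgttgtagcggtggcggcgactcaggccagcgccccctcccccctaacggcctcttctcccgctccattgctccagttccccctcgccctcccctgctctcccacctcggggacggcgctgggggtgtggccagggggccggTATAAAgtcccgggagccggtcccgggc
The Igfbp4 window held TATAAA, which began 28 bases before the start site, and the Igf1 window held no match to the 4 motifs. Of 32851 mouse promoter windows of this length, 12.4% held the TATA box, 32.7% the GC box, 4.46% the AP-1 site and 7.02% the STAT site. The table of promoters covered 9 of the 10 members in 13 windows. The TATA box was found in 2 of them, the GC box in 5, the AP-1 site in 1 and the STAT site in none. No promoter of Igfbpl1 was used here.

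Igf1 showed the largest rise among the members. In the naive ONH its intensities were 572, 541, 941, 634 and 674. In the crushed ONH they were 686, 441, 676, 692 and 1034 at 1 day, beside 657, 346, 576, 520 and 835 in the contralateral ONH, and the groups overlapped. At 3 days the crushed samples had 2844, 1501, 2999, 3285 and 3974 and the contralateral ones 607, 657, 530, 388 and 485. Every crushed sample was now above every contralateral one. At 1 week the crushed samples had 5973, 6415, 6072, 7303 and 6348, against 784, 495, 1334, 709 and 876. At 3 weeks they had 2809, 4059, 3488, 2186 and 3219, against 678, 934, 412, 486 and 645. The groups were again apart at both times. At 1 day Igf1 differed by a log2 fold change of 0.27 ± 0.22 (SE, 5 pairs), which was not called (adjusted p = 0.3 in limma). It was 2.41 ± 0.22 at 3 days, a 5.3-fold rise, 3.01 ± 0.22 at 1 week, an 8.04-fold rise, and 2.35 ± 0.22 at 3 weeks, a 5.09-fold rise. The adjusted p in limma were 3.12e-08, 2.7e-09 and 4.84e-07. The rise between 1 day and 3 days was itself past the threshold, with a difference of the log2 fold changes of 2.13 ± 0.31 (adjusted p = 9.78e-05), whereas the step from 3 days to 1 week was not called (0.6 ± 0.31, adjusted p = 0.229).

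Ranked by group mean over the first batch, Igf1 was highest in the crushed ONH at 1 week (6422 ± 526, SD, n = 5), which exceeded the next group by more than the spread. The crushed ONHs at 3 weeks (3152 ± 705) and 3 days (2921 ± 904) did not differ beyond their spread. All other groups lay between 533 and 839, and no neighbours among them differed beyond their spread. The other 2 probe sets of Igf1 gave the same calls. Their log2 fold changes were 2 and 1.58 at 3 days, 3.01 and 2.33 at 1 week, and 2.37 and 2.23 at 3 weeks. At 1 day they were 0.17 and -0.45, and neither was called.

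Markers of microglia and macrophages moved with Igf1. Of 22 such genes tested, 7 were higher and 4 lower at 1 day, and the counts were 11 and 1 at 3 days. They were 11 and none at 1 week and 7 and none at 3 weeks. Of all genes, 6.87% were higher and 8.2% lower at 1 day, and 7% and 2.47% at 3 days. The shares were 6.53% and 3.92% at 1 week and 2.76% and 1.77% at 3 weeks. Counts of cell markers here and below are to be read beside these shares. The summed intensity of the 22 markers was 48659 to 58576 in naive samples, 88640 to 129690 in crushed samples at 1 week and 54551 to 65130 in the contralateral ones. Across the 45 arrays the log2 level of Igf1 had a Pearson correlation of 0.91 with the mean log2 level of these markers, as a description of arrays that share their groups. It was -0.73 for the markers of axons and ganglion cells and 0.66 for those of cycling cells. The 3 genes whose pattern over these arrays was most like that of Igf1 were Ms4a7 (r = 0.96), Ppic (0.95) and Adgre1 (0.94). Adgre1 encodes the macrophage antigen F4/80 and belongs to the marker list. The part of any of these cells in the rise of Igf1 was not tested.

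**Figure D2:**
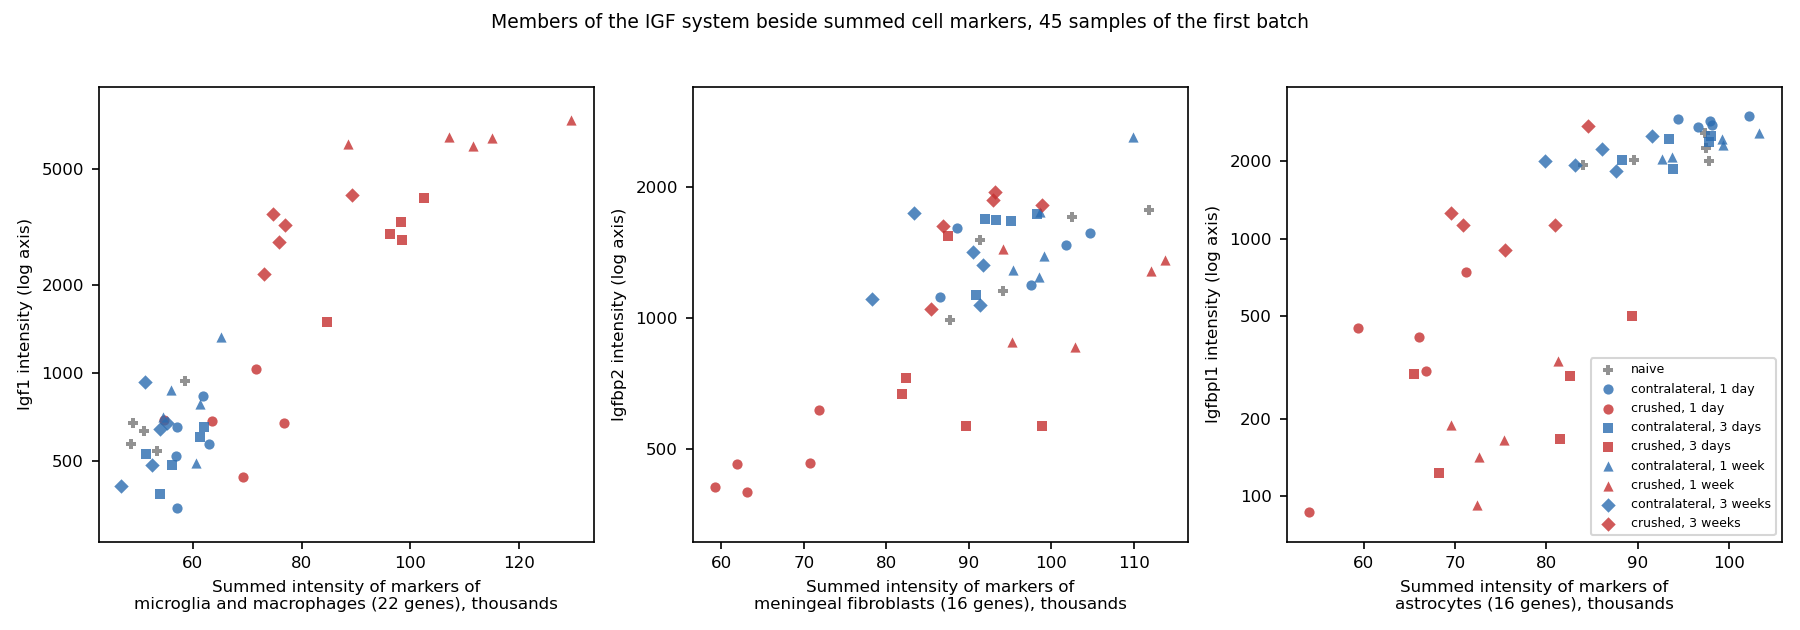
Intensity (log axis) of Igf1, Igfbp2 and Igfbpl1 in the 45 samples of the first batch, against the summed intensity of markers of microglia and macrophages, meningeal fibroblasts and astrocytes. Colours give naive (grey), contralateral (blue) and crushed (red) samples and symbols give the time. The crushed samples with the highest Igf1, at 1 week, had marker sums of 88640 to 129690.

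Igf2, the second ligand, fell at the early times and was back near the control level at 1 week. At 1 day the crushed samples had 2847, 2754, 2812, 1836 and 2502, against 7427, 4685, 6537, 7080 and 6502 in the contralateral ONH. At 3 days they had 2707, 2364, 2683, 1804 and 3075, against 6897, 6688, 7079, 6988 and 5489. The groups were apart at both times. Igf2 thus had a log2 fold change of -1.34 ± 0.14 at 1 day (2.53-fold lower, adjusted p = 1.62e-07 in limma) and -1.41 ± 0.14 at 3 days (2.65-fold lower, adjusted p = 1.8e-07). At 1 week the crushed samples, 6497, 5869, 5245, 6517 and 6222, overlapped the contralateral range of 6027 to 7397, and the log2 fold change was -0.14 ± 0.14. The change of the crush effect from 3 days to 1 week was called, at 1.27 ± 0.2 (adjusted p = 0.00124). At 3 weeks the crushed samples, 2675 to 4317, again lay below all contralateral ones, 4517 to 5732, by a log2 fold change of -0.48 ± 0.14 (adjusted p = 0.0204), which was under 2-fold and not called.

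A dimmer probe set of Igf2 gave log2 fold changes of -2.57 ± 0.27 at 1 day and -2.08 ± 0.27 at 3 days, both called. All 10 crushed samples at these times were below an intensity of 50 on it, from 12.6 to 41.1, so that the floor of 20 set before the log2 step can understate its change. In the order of levels over the first batch, the crushed ONHs at 1 day (2550 ± 422) and 3 days (2527 ± 476) were lowest for the bright probe set and did not differ beyond their spread. The crushed ONH at 3 weeks (3624 ± 726) was above them and below the contralateral ONH at 3 weeks (4986 ± 494), each by more than the spread. The remaining groups lay above these, from 6070 to 6668, with no difference beyond the spread between neighbours among them. Closest to Igf2 in pattern were Wnk4 (r = 0.83), Cyp27a1 (0.81) and Gprc5c (0.8).

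The receptor Igf1r was dim and no change was called at any time. Its crushed samples at 1 week had 162, 173, 223, 190 and 198, all below the contralateral samples, which had 264, 243, 309, 271 and 254. Its log2 fold change was -0.51 ± 0.14 at 1 week (adjusted p = 0.00714 in limma) and -0.51 ± 0.14 at 3 weeks (adjusted p = 0.014), lower in 5 of 5 pairs each time but short of 2-fold. At 1 day and 3 days it was -0.26 ± 0.14 and -0.1 ± 0.14. The second, dimmer probe set of Igf1r showed log2 fold changes between -0.46 and 0.1 and none was called. No 2 neighbouring groups in the order of Igf1r levels differed beyond their spread. Closest to it in pattern were Vldlr (r = 0.73), Apc (0.7) and Ank3 (0.68).

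Igfbp2, which binds both ligands, fell at 1 day. Its crushed samples had 614, 464, 410, 461 and 398, below all contralateral samples, which had 1471, 1118, 1612, 1192 and 1568. This was a log2 fold change of -1.57 ± 0.23 (2.97-fold lower, adjusted p = 8.48e-06 in limma). At 3 days the crushed samples had 669, 727, 565, 565 and 1544 and the contralateral ones 1671, 1741, 1686, 1689 and 1130. Sample 5 of either side stood apart from the other 4, and its pair was the only 1 of 5 in which the crushed ONH was higher. The log2 fold change of -1.06 ± 0.23 was called (adjusted p = 0.000989). It was -1.43 ± 0.18 without pair 5, and it was under 2-fold when pair 1, 3 or 4 was left out (-0.99, -0.93 and -0.93) or when naive samples served as controls (-0.89 ± 0.24).

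At 1 week and 3 weeks Igfbp2 was not called, with log2 fold changes of -0.49 ± 0.23 and 0.31 ± 0.23. The crush effect at 3 weeks was above that at 1 day by 1.88 ± 0.33 (adjusted p = 0.000145 in limma). In the order of levels no neighbouring groups differed beyond their spread, from 1666 ± 363 in the crushed ONH at 3 weeks down to 469 ± 86.1 in the crushed ONH at 1 day. Its nearest genes in pattern were Wnt6 (r = 0.89), Wnk4 (0.89) and Tcea3 (0.88). Wnk4 was also the gene most like Igf2. The log2 levels of Igfbp2 and Igf2 themselves had a correlation of 0.73 over the 45 arrays.

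Some markers of meningeal fibroblasts were lower at the times when Igf2 and Igfbp2 were. Of 16 meningeal markers, 5 were lower at 1 day and none was higher. These were Slc6a13 (-3.42), Slc22a6 (-3.21), Dpt (-2.85), Ogn (-2.56) and Fbln1 (-1.03 as a log2 fold change), of which Slc6a13 and Slc22a6 encode transporters. The collagen genes Col1a1, Col1a2 and Col3a1 were not called, at -0.35, -0.52 and -0.04. At 3 days 3 of the 16 were lower, at 1 week 2, and at 3 weeks none. The summed intensity of the list was 59241 to 71861 in crushed and 86489 to 104640 in contralateral samples at 1 day, and 81841 to 98871 against 90907 to 98290 at 3 days. Of 11 markers of pericytes and smooth muscle, 3 were lower at 1 day and none at 3 days, and their summed intensity was 14475 to 23458 in crushed and 32276 to 39666 in contralateral samples at 1 day. At 3 days these sums overlapped, at 25967 to 37106 and 27724 to 33187, while Igf2 was still lower. Over the 45 arrays, the correlation with the mean log2 level of a list was 0.75 for Igf2 and 0.82 for Igfbp2 with the meningeal, 0.67 and 0.63 with the astrocyte, and 0.35 and 0.31 with the pericyte list. The part of these cells in the fall of Igf2 and Igfbp2 was not tested.

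Igfbp3, the main carrier of the IGFs in blood, rose early. At 1 day the crushed samples had 8142, 7018, 7177, 7207 and 8304, against 3008, 3195, 2043, 2463 and 2920, and the groups were far apart. This was a log2 fold change of 1.49 ± 0.12 (2.81-fold, adjusted p = 3.72e-09 in limma). At 3 days the crushed samples had 5701, 5560, 5595, 5037 and 5181 and the contralateral ones 2946, 3864, 2378, 3177 and 2527. The log2 fold change of 0.88 ± 0.12 had an adjusted p of 7.01e-06 but was under 2-fold. It was 0.44 ± 0.12 at 1 week, higher in 5 of 5 pairs, and -0.17 ± 0.12 at 3 weeks, when the groups overlapped. The crush effect at 3 weeks was below that at 1 day by -1.66 ± 0.17 (adjusted p = 4.89e-07). In the order of levels, the crushed ONH at 1 day (7570 ± 604), the crushed ONH at 3 days (5415 ± 289) and the crushed ONH at 1 week (3466 ± 569) followed each other, with gaps beyond the spread after the first and the second. No neighbours among the other groups differed beyond it. Its nearest genes in pattern were Grk5 (r = 0.91), Tubb6 and Sec13 (0.9 each), and its correlation with Igfbp2 was -0.73. Markers of cycling cells were also higher at 1 day, but they rose further at 3 days, when Igfbp3 was lower than at 1 day. Of 11 such genes, 9 were higher at 1 day, 10 at 3 days, 9 at 1 week and none at 3 weeks. Aurkb and Bub1 were among those called at 1 day, 3 days and 1 week. Both were too dim in naive and contralateral samples to be tested there, and passed the filter only with their crushed samples. The size of their rise is therefore uncertain. The summed intensity of the 11 genes at 1 day was 9318 to 18803 in crushed and 5310 to 6223 in contralateral samples. At 3 days it was 30573 to 37767 and 6262 to 7278. Over the 45 arrays the correlation of Igfbp3 with the mean log2 level of a list was 0.6 for cycling cells. It was -0.71 for astrocytes and -0.71 for meningeal fibroblasts. The part of these cells in the rise of Igfbp3 was not tested.

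**Figure D3:**
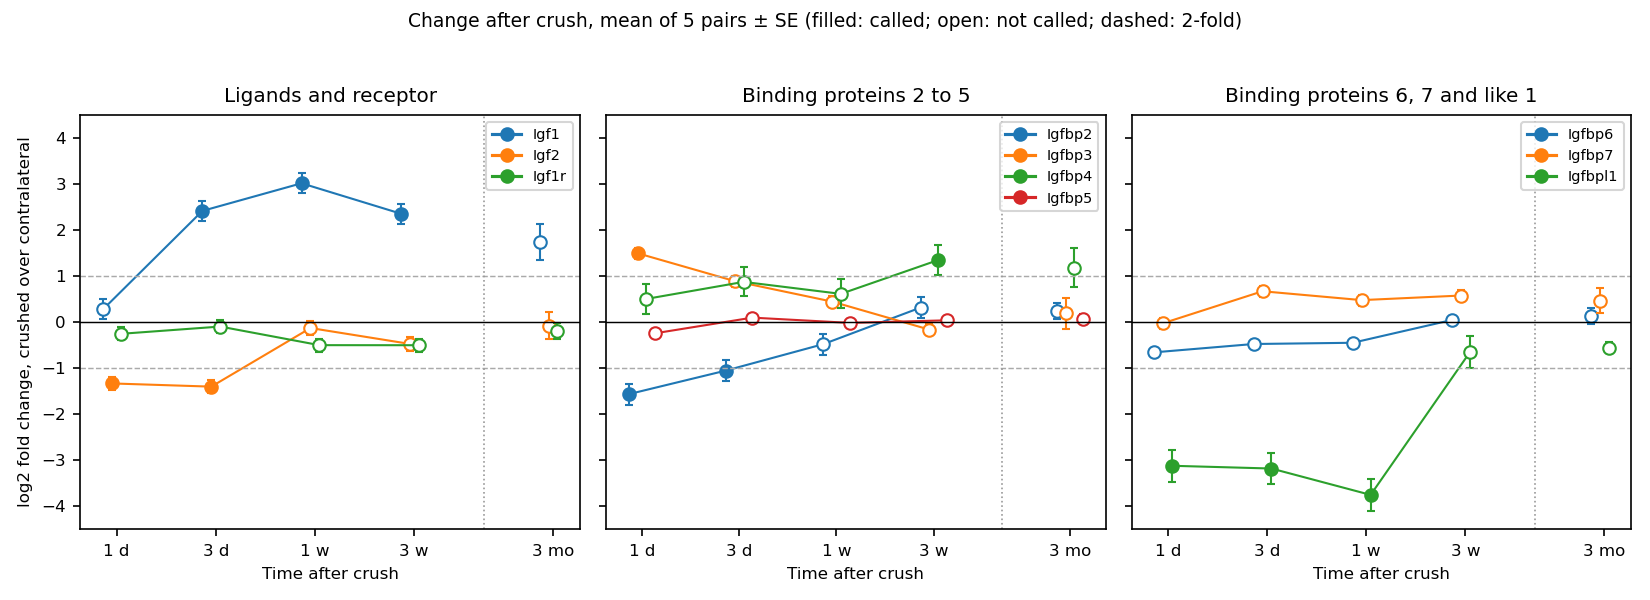
Log2 fold change of crushed over contralateral ONHs for each member against time, as the estimate from 5 pairs ± SE. Filled points were called, open points were not, dashed lines mark 2-fold, and 3 months is a separate batch. Igf1 stayed above 2-fold from 3 days to 3 weeks, Igfbp3 fell back from 1.49 at 1 day, and Igfbpl1 lay between -3.13 and -3.76 until 1 week.

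Igfbp4, the binding protein that pregnancy-associated plasma protein A cleaves, was higher at 3 weeks. The crushed samples had 5847, 4574, 5765, 5661 and 5240, above all contralateral samples, which had 4081, 2643, 1042, 1516 and 2588. This was a log2 fold change of 1.34 ± 0.32 (2.53-fold, adjusted p = 0.00432 in limma). The contralateral samples spread widely at every time, for example from 846 to 2929 at 3 days, and the naive ones ran from 2287 to 3992. Against naive samples the log2 fold change at 3 weeks was 0.95 ± 0.19 (adjusted p = 0.000535), which was short of 2-fold. At 1 day, 3 days and 1 week the values were 0.5, 0.87 and 0.61 (SE 0.32) and none was called. At 3 days the value was 1.05 without pair 2 and 1.14 without pair 5, and both were then called.

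All 6 probe sets of Igfbp4 were called at 3 weeks, with log2 fold changes from 1.27 to 1.94, and the dimmest had the highest value. At 3 days 3 of the 6 were called (1.06, 1.22 and 1.08), and at 1 week only the dimmest was (1.13 ± 0.39). No neighbouring groups in the order of levels differed beyond their spread, between 5417 ± 526 in the crushed ONH at 3 weeks and 1945 ± 1083 in the contralateral ONH at 1 day. Closest to Igfbp4 were Steap4 (r = 0.86), Epyc (0.85) and Enpep (0.83), and its correlation with Igf1 was 0.71. At 3 weeks, when Igfbp4 was called, 7 of the 22 markers of microglia and macrophages were higher too, with sums of 73159 to 89227 in crushed and 46800 to 55191 in contralateral samples. The crushed sums were higher still at 1 week, from 88640 to 129690, when the brightest probe set of Igfbp4 was not called. Over the 45 arrays Igfbp4 had a correlation of 0.51 with the mean log2 level of these markers. It was 0.44 for the markers of pericytes and smooth muscle, -0.54 for those of axons and ganglion cells and -0.45 for those of oligodendrocytes. The part of these cells in the rise of Igfbp4 was not tested.

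Igfbp5 and Igfbp6 showed small differences. Igfbp5 was bright in all samples, between 7149 and 16025, and its log2 fold change was -0.25 ± 0.08 at 1 day (adjusted p = 0.0166 in limma) and between -0.02 and 0.09 from 3 days to 3 weeks. Its second probe set was at -0.53 ± 0.24 at 1 day and was not called. Igfbp5 lies next to Igfbp2 in the mouse genome, and only the latter was called. Igfbp6, which prefers IGF2 as a ligand, had 6437, 5814, 4640, 4081 and 4026 in crushed and 8734, 7478, 6817, 8373 and 7612 in contralateral samples at 1 day, with no overlap. Its log2 fold change was -0.66 ± 0.08 at 1 day, -0.48 ± 0.08 at 3 days and -0.46 ± 0.08 at 1 week, lower in 5 of 5 pairs each time. These differences had adjusted p in limma of 8.77e-07, 7.7e-05 and 0.000137, but they were below 2-fold and therefore not called. At 3 weeks the value was 0.04 ± 0.08.

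In the order of levels, the crushed ONHs of Igfbp6 at 1 week (5743 ± 663), 3 days (5684 ± 327) and 1 day (5000 ± 1078) were the lowest, and a gap beyond the spread set them below all others, 7748 to 8092. For Igfbp5 there was 1 such gap, between the contralateral ONH at 3 days (10314 ± 976) and the crushed ONH at 1 day (9218 ± 559). Those nearest to Igfbp6 in pattern were Amy1, Wnt6 and Nbl1 (r = 0.93 each), and those most like Igfbp5 were Ptprm (0.87), Rin2 (0.84) and Txnip (0.83). Igfbp6 had a correlation of 0.8 with Igfbp2 and 0.81 with Igfbpl1. It also had a correlation of 0.77 with the mean log2 level of the meningeal and of the astrocyte markers, whose counts are given with Igfbp2 and Igfbpl1, and the part of those cells was not tested.

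Igfbp7 depended on the probe set. On the brightest, the crushed samples had 7998, 8105, 10152, 9244 and 8042 at 3 days, above all contralateral samples, which had 4365, 6237, 5713, 5001 and 6320. Its log2 fold change was 0.66 ± 0.12 at 3 days, 0.47 ± 0.12 at 1 week and 0.57 ± 0.12 at 3 weeks, higher in 5 of 5 pairs each time, with adjusted p in limma of 0.000169, 0.00348 and 0.00175. None of these reached 2-fold. The other 2 probe sets, with lower intensities, were called at 3 days (1.39 ± 0.24 and 1.24 ± 0.19), and the dimmest was also called at 1 week (1.2 ± 0.24). At 1 day the 3 probe sets lay between -0.23 and 0.18. By level the crushed ONHs at 1 week (9202 ± 1221) and 3 days (8708 ± 959) did not differ beyond their spread and were above all other groups by more than it. Closest to Igfbp7 were Bgn (r = 0.93), Pdgfrb (0.88) and Col6a3 (0.86), of which Pdgfrb encodes a receptor of pericytes and fibroblasts. Of 13 endothelial markers, 2 were higher and 1 lower at 1 day and 4 were higher at 3 days. Of all genes, 6.87% were higher and 8.2% lower at 1 day, and 7% were higher at 3 days. The endothelial sums at 3 days were 32276 to 49279 in crushed and 25670 to 32347 in contralateral samples. The endothelial sums overlapped at 1 week (25595 to 33881 against 28368 to 37751) and at 3 weeks (20823 to 28170 against 21896 to 27558), when Igfbp7 was still higher in 5 of 5 pairs. Over the 45 arrays the correlation of Igfbp7 with the mean log2 level of a list was 0.69 for endothelium, 0.68 for microglia and macrophages and 0.66 for pericytes and smooth muscle. The part of these cells in the values of Igfbp7 was not tested.

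Counted by probe set, 1 of the 23 was higher and 5 were lower at 1 day, 8 and 5 at 3 days, 5 and 2 at 1 week, and 9 and 1 at 3 weeks, and none was called at 3 months. Of all probe sets tested, 14.5%, 8.79%, 9.73%, 4.11% and 0.462% were called at these times. Igf1, Igfbp4 and Igfbp7 together hold 12 of the 23, so that these counts weight them most.

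**Figure D4:**
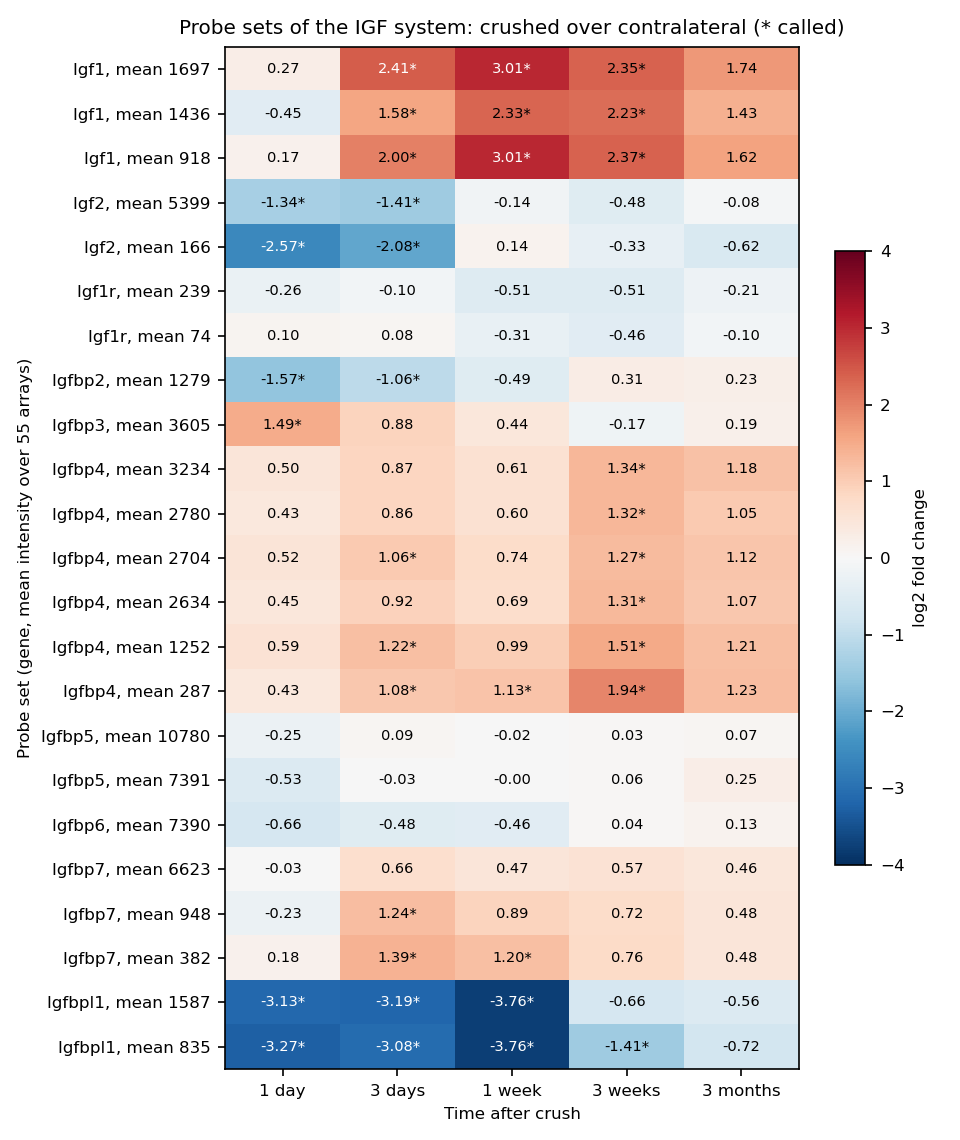
Log2 fold change of crushed over contralateral ONHs at each time for all 23 probe sets of the 10 members, with the mean intensity of the probe set over 55 arrays. An asterisk marks a called value. The 6 probe sets of Igfbp4 all carry one at 3 weeks, and for Igfbp7 the brightest carries none at any time.

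Igfbpl1 showed the largest fall among the members. At 1 day its crushed samples had 746, 449, 416, 306 and 86.5, against 2713, 2991, 2910, 2865 and 2758. At 3 days they had 297, 166, 292, 500 and 123, against 2502, 2448, 1874, 2024 and 2382. At 1 week they had 165, 336, 142, 92.3 and 189, against 2450, 2572, 2319, 2047 and 2083. The groups were far apart at all 3 times. The log2 fold changes were -3.13 ± 0.35, -3.19 ± 0.35 and -3.76 ± 0.35 (8.73-fold, 9.1-fold and 13.5-fold lower), with adjusted p in limma of 2.42e-07, 4.19e-07 and 6.01e-08. The second probe set gave -3.27, -3.08 and -3.76 and was called each time.

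At 3 weeks the crushed samples of Igfbpl1 had 1129, 2731, 903, 1136 and 1263, against 2500, 1931, 1837, 2008 and 2232. Sample 2 was above all contralateral samples and the other 4 were below them. Its log2 fold change was -0.66 ± 0.35 and was not called (adjusted p = 0.185 in limma), and it was -0.95 ± 0.37 without pair 2 (adjusted p = 0.0783). The second probe set was called at 3 weeks (-1.41 ± 0.25), and crushed sample 2 stood apart on it too, at 1392 beside 295 to 387. The crush effect at 3 weeks was above that at 1 week by 3.09 ± 0.49 (adjusted p = 0.000387) and above that at 1 day by 2.46 ± 0.49 (adjusted p = 0.000542). In the order of levels the crushed ONHs at 1 day (401 ± 240), 3 days (276 ± 147) and 1 week (185 ± 91.9) were lowest and did not differ beyond their spread.

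Nearest to Igfbpl1 in pattern were Agt (r = 0.96), Rcan2 (0.95) and Tprkb (0.92). Agt encodes angiotensinogen, which astrocytes express in the brain. Some astrocyte and oligodendrocyte markers were lower at times when Igfbpl1 was. Of 16 astrocyte markers, 6 were lower at 1 day, 1 at 3 days, 1 at 1 week and none at 3 weeks. Of all genes, 8.2%, 2.47%, 3.92% and 1.77% were lower at these times. The summed intensity of the astrocyte markers at 1 day was 54031 to 71245 in crushed and 94457 to 102240 in contralateral samples. It was 65501 to 89394 against 88275 to 97980 at 3 days and 69553 to 81299 against 92705 to 103335 at 1 week. At 3 weeks it was 69574 to 84509 against 79839 to 91604. Of 14 oligodendrocyte markers, 8 were lower at 1 day and 3 at 3 days, then 8 at 1 week, with 5 still lower at 3 weeks. The summed intensity of that list was 40983 to 63266 in crushed and 80624 to 90934 in contralateral samples at 1 day. Over the 45 arrays the correlation of Igfbpl1 with the mean log2 level was 0.88 for the astrocyte and 0.78 for the oligodendrocyte list. It was -0.86 for the markers of cycling cells and -0.77 for those of microglia and macrophages. The part of these cells in the fall of Igfbpl1 was not tested.

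Between times, the crush effect changed by the same rule for 1 member in each step from one time to the next and for 4 members from 1 day to 3 weeks. Of all genes, 5.62% were called for 3 days against 1 day, 3.2% for 1 week against 3 days, 4.8% for 3 weeks against 1 week and 13.4% for 3 weeks against 1 day. Besides the values given above, Igf1 was higher by 2.07 ± 0.31 at 3 weeks than at 1 day (adjusted p = 2.61e-05 in limma). These contrasts share their crush terms.

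In the contralateral ONH no member was called against naive ONHs at any time by limma. At an unadjusted p under 0.05 there was 1 member at 1 day, none at 3 days and 1 week, and 3 at 3 weeks, and of all 10440 genes tested 0%, 0%, 0.125% and 0.67% were called at the 4 times and 7.43%, 5.73%, 14.8% and 28.2% had such a p. The member at 1 day was Igfbpl1, whose contralateral samples, 2713 to 2991, all lay above the naive ones, 1937 to 2569 (log2 fold change 0.41 ± 0.1, adjusted p = 0.267). At 3 weeks they were Igf2 (-0.36 ± 0.12, adjusted p = 0.0574), Igfbp5 (-0.28 ± 0.08, adjusted p = 0.0338) and Igfbp7 (-0.44 ± 0.15, adjusted p = 0.0645). The 4 comparisons share the naive samples, and each contralateral group also enters the crush comparison of its time.

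At 3 months, in the second batch, Igf1 had 2645, 869, 2183, 926 and 1972 in crushed and 357, 623, 300, 506 and 659 in contralateral samples. Every crushed sample was above every contralateral one. Its log2 fold change was 1.74 ± 0.39 (3.33-fold, higher in 5 of 5 pairs), and with the pair as a block it was not called (adjusted p = 0.123 in limma). Without the block for the pair its adjusted p was 0.0258 and it was called, and it also met the 3 criteria of the study. The other 2 probe sets of Igf1 were at 1.62 and 1.43. Igfbpl1 had 1199, 1587, 1542, 1525 and 1232 in crushed and 1673, 2676, 2248, 1882 and 2026 in contralateral samples, again without overlap, with a log2 fold change of -0.56 ± 0.12 (adjusted p = 0.107). Igfbp4 was at 1.18 ± 0.43 (adjusted p = 0.305). These were the 3 members with an unadjusted p under 0.05.

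Contralateral sample 1 at 3 months stood apart. Its photoreceptor markers summed to 149528, against 1632 to 54433 in the other 4, and its meningeal markers to 66515, against 109758 to 128073. The same sample had the lowest contralateral values of Igf2 (2386, others 7681 to 10047), Igfbp2 (609), Igfbp3 (989), Igfbp4 (747), Igfbp6 (4792) and Igfbp7 (2866). Crushed sample 5 had a photoreceptor sum of 70143, against 1693 to 4313 in the other 4. Without pairs 1 and 5 the log2 fold change of Igf1 was 1.41 ± 0.47 and that of Igfbp4 0.8 ± 0.37, a choice made after seeing the data, and no member was called.

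The other genes of the pathway were taken from 5 lists, whose counts are to be read beside the shares of all genes. Of all genes, 6.87% were higher and 8.2% lower at 1 day, and 7% and 2.47% at 3 days. The shares were 6.53% and 3.92% at 1 week and 2.76% and 1.77% at 3 weeks, and 0.506% were called at 3 months. Of 15 proteases and regulators of the binding proteins tested, 5 were higher and none lower at each time until 1 week, and 2 were higher at 3 weeks. The list had a median log2 fold change of 0.16, 0.31, 0.44 and 0.18 at these times. Stc1, an inhibitor of pregnancy-associated plasma protein A, was at 602 to 1630 in crushed and 50 to 171 in contralateral samples at 1 day, and its log2 fold changes were 3.41 ± 0.23, 2.38 ± 0.23 and 2.1 ± 0.23 at the first 3 times. Pappa itself, which encodes that protease, was dim, at 59 to 180 in crushed and 13.3 to 30.7 in contralateral samples at 1 day, and was called at the same 3 times (2.31, 1.49 and 1.69, SE 0.27). Some of its contralateral samples were at or below the floor of 20 at 1 day and 3 days, where the change can be understated, and none was at 1 week, from 36.6 to 67.3.

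The metalloprotease gene Adam12 was called at all 4 times, with log2 fold changes of 2.15, 2.64, 2.9 and 1.25 (SE 0.22). Plau, which encodes urokinase, was called at 1 day, 3 days and 1 week (1.96, 2.9 and 2.13, SE 0.25). Every naive and contralateral sample of Plau in the first batch was below 50, so it passed the filter through its crushed samples alone. The contralateral samples had 22.1 to 31.9 at 1 day, 13.4 to 32.5 at 3 days and 16.6 to 25.4 at 1 week. So near the floor of 20, the size of its change is uncertain and can be understated. Mmp3, which encodes stromelysin 1, was at 2570 to 5342 in crushed and 25.8 to 182 in contralateral samples at 1 day. Its log2 fold change was 5.67 ± 0.5 at 1 day and 1.81 ± 0.5 at 3 days. It was not called at 1 week (0.82) and was called again at 3 weeks (3.86 ± 0.5). At 3 days the crushed samples of Mmp3, 123 to 393, were above the contralateral ones, 30 to 90. They lay within the naive range of 108 to 596, so the call at 3 days holds against contralateral samples only. Mmp14 was called at 1 week only (1.22 ± 0.15). Its samples then had 1796 to 3156 in crushed and 724 to 1586 in contralateral ONHs, and the naive ones had 1147 to 1755.

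Of 40 genes of the signalling list, 4 were higher and 1 lower at 1 day, 5 and 1 at 3 days, 5 and 1 at 1 week, and none and 1 at 3 weeks. Of all genes, 6.87% were higher and 8.2% lower at 1 day, with the later shares as given above. The median of the signalling list stayed between -0.05 and 0.12. Grb14, an adaptor that inhibits insulin and IGF receptors, was the gene that was lower at all 4 times, with log2 fold changes of -1.89, -1.42, -1.61 and -1.44 (SE 0.2). At 3 weeks its crushed samples, 840 to 2808, were below the contralateral ones, 3306 to 4623, but overlapped the naive ones, 1690 to 3363. Eif4ebp1, a repressor of translation that mTOR controls, was higher at 1 day (2.41 ± 0.16), 3 days (1.72) and 1 week (1.27). Trib3, which encodes a pseudokinase that binds AKT, was higher at 1 day (2.44 ± 0.25) and 3 days (1.25). Sh2b2, which encodes an adaptor protein, and Pik3cd, a PI3-kinase gene of leukocytes, were called at the first 3 times, at 1.41, 1.13 and 1.32 for the former and 1.41, 1.7 and 1.79 for the latter. Pik3cg, also a PI3-kinase gene of leukocytes, was called at 1 week (1.42 ± 0.16), when the markers of microglia and macrophages were higher too. Their part in these 2 genes was not tested.

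Of 11 genes of the growth hormone axis, the feedback inhibitor Socs3 was called at 1 day (2.16 ± 0.2) and 3 days (1.24 ± 0.2), and Socs2 at 3 weeks (1.25 ± 0.18), while none was lower. At 3 months Socs2 was at 1.26 ± 0.19 (adjusted p = 0.0507 in limma) and was not called. Of 8 genes of IGF RNA-binding proteins, imprinted genes and their partners, 1 was higher and 2 were lower at 1 day, and 1 was higher and 1 lower at 3 days. Hmga2, a chromatin protein that promotes expression of the RNA-binding protein IGF2BP2, rose (3.16 ± 0.21 and 2.03 ± 0.21), and Cdkn1c, an imprinted inhibitor of the cell cycle, fell (-2.09 ± 0.2 and -1.03 ± 0.2). Peg3, an imprinted transcription factor gene, was lower at 1 day only (-1.73 ± 0.11). Of 9 further ligands, receptors and binding proteins of the insulin family, Kazald1 (-2.6 ± 0.26) and Rln1 (-1.1 ± 0.21) were lower at 1 day, and none of the 9 was called later. Rln1 was dim, at 17.8 to 46.1 in crushed and 56.3 to 87.4 in contralateral samples at 1 day, so its change lies near the floor of 20. The median log2 fold change over the 5 times ran from 0.12 to 0.41 for the growth hormone list, from -0.24 to 0.43 for the RNA and imprinting list and from -0.21 to 0.28 for the insulin family list. None of these lists had a gene called at 3 months.

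**Figure D5:**
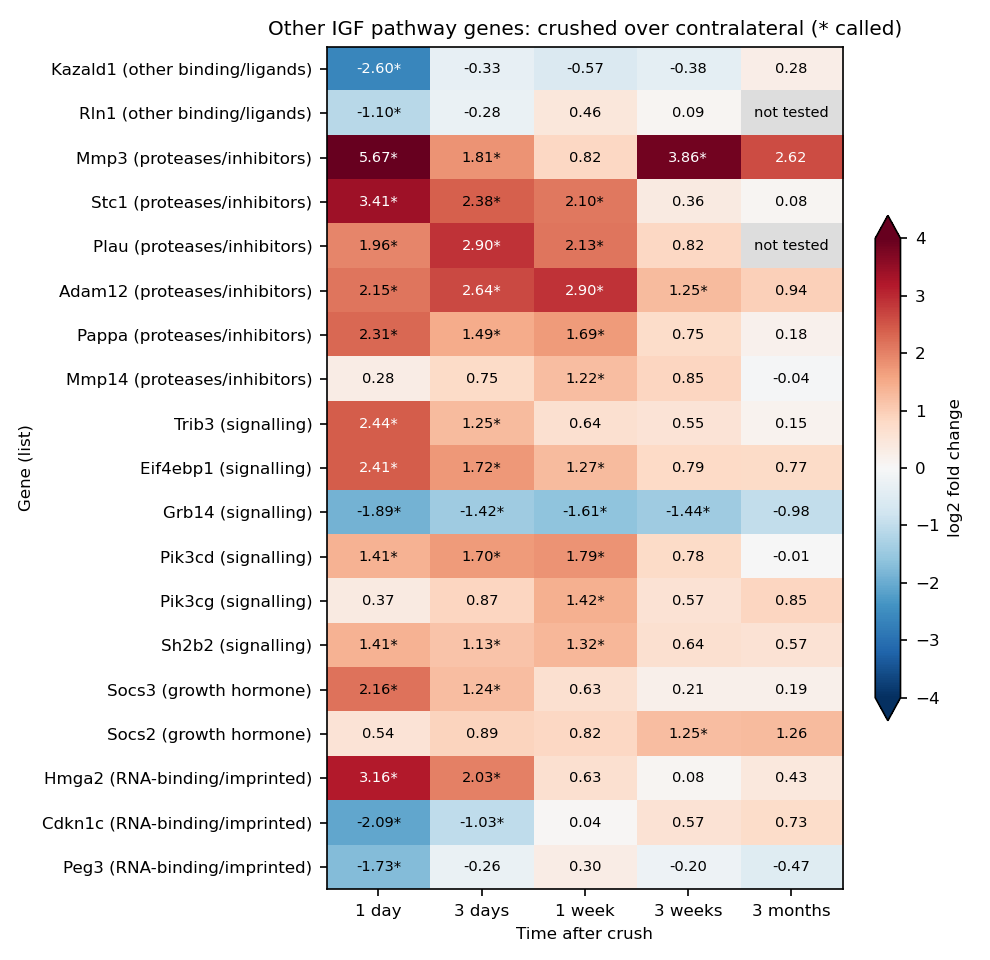
Log2 fold change of crushed over contralateral ONHs at each time for the other genes of the IGF pathway named in the text, with the list each comes from. An asterisk marks a called value, and grey cells were too dim to be tested. Stc1, Pappa, Plau and Adam12 were called at 1 day, 3 days and 1 week, and Grb14 was lower at all times to 3 weeks.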

How the data were processed

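ONH RNA was amplified and hybridized by the authors to 55 arrays, normalized in DChip by the invariant set method and summarized by a PM/MM difference model, and the deposited values are linear intensities per probe set. The 3-month arrays were processed apart by the authors. Among 22690 probe sets, 64 controls were left out. Values under 20, 9.9% of all, were set to 20 and log2 was taken. Probe sets that reached 50 on fewer than 5 arrays of a model were not tested in it. Depth is not defined for arrays, and the number of samples limits the precision. The median intensity of an array was 459 to 554 in the first batch and 494 to 598 in the second.

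Comparisons used limma 3.58.1 (lmFit, eBayes with trend) in R 4.3.3, with the package data.table (version 1.17.8), Python 3.11.15, pandas 2.3.3, numpy 2.4.6 and matplotlib 3.10.9. Adjusted p are Benjamini-Hochberg values from these models over 19313 probe sets (first batch), 18823 (3 months) or 18669 (naive). The pair of eyes was a fixed block in the crush model of 40 arrays and in that of 10 arrays, because both samples of a pair come from the same mice. The sample titles give replicate numbers but do not name the pairs, so pairing by number was assumed. The correlation of same-numbered crushed and contralateral samples' deviations ran from -0.47 to 0.59, which does not settle it. Contralateral and naive samples were compared unpaired (25 arrays). The 2 ONHs of a crushed or contralateral sample came from different mice, and the paper does not say how naive ONHs were pooled. The ± value of a fold change is its SE from limma. Neighbouring groups in an order of levels differed beyond their spread when their means were further apart than the larger SD. The code was tested on simulated data.

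The annotation is that of the array platform. Of 22626 probe sets, 691 name several genes and 1555 none, and these named no gene. A gene is represented by its brightest probe set. The members and lists were chosen with earlier results of these data known. The text names all 10 members, up to 6 called genes of each pathway list by size of change, and for each member the 3 genes with the highest Pearson correlation of log2 intensity over 45 arrays. The alternatives were other normalizations, floors, filters and variance models, naive controls, the criteria of the study, photoreceptor level as a covariate, fits with and without the block, and leaving out samples. Promoters are RefSeq's.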

Additional observations from a re-analysis of the deposited data

Results flagged for a closer look

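Of 110 groups of 5 samples, 6 had a sample that stood apart from the other 4 by Dixon's criterion, and chance alone gives about 1 group in 20. Igfbp2 had such a sample on both sides of pair 5 at 3 days, with 1130 in the contralateral ONH (others 1671 to 1741) and 1544 in the crushed ONH (others 565 to 727). Contralateral sample 5 at 3 days was also apart for Igf2, at 5489 (others 6688 to 7079). Contralateral sample 5 at 1 day was apart for Igfbp7, at 8494 (others 5583 to 6393), and contralateral sample 1 at 3 months for Igfbp5, at 10723 (others 13826 to 14866). Crushed sample 2 at 3 weeks was apart for Igfbpl1, at 2731 (others 903 to 1263).

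The crush effect of 5 members differed between times by a contrast of the crush terms. On the log2 scale these differences were 2.13 for Igf1 from 1 day to 3 days, 2.07 for Igf1, 1.88 for Igfbp2, 2.46 for Igfbpl1 and -1.66 for Igfbp3 from 1 day to 3 weeks, 1.27 for Igf2 from 3 days to 1 week, and 3.09 for Igfbpl1 from 1 week to 3 weeks. The 4 contrasts share their crush terms. Of all genes, 5.62% were called in the first of these steps, 13.4% from 1 day to 3 weeks, 3.2% from 3 days to 1 week and 4.8% from 1 week to 3 weeks.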

How the results depend on the processing

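No member changed sign in a called result under any alternative, and quantile normalization, a shift of all arrays to a common median, other floors and filters, no intensity trend and a photoreceptor covariate moved no member across the thresholds. With all pairs kept, the count of members called changed at 3 times. At 3 days the count of 4 became 3 with naive samples as controls and 3 by the criteria of the study, with Igfbp2 lost each time (-0.89 and -0.96). At 3 weeks the count of 2 became 1 with naive samples as controls and 1 by the criteria of the study, with Igfbp4 lost each time (log2 fold change 0.95 and 1.19). At 3 months the count of 0 became 1 with no replicate block for the pair and 1 by the criteria of the study, with Igf1 gained each time. Leaving the block out of the crush models changed no other call, and adding the replicate number as a block changed none in the comparisons with naive samples. Leaving out a pair gave 4 to 4 members called at 1 day, 3 to 5 at 3 days, 2 to 2 at 1 week, 2 to 2 at 3 weeks and 0 to 0 at 3 months. It gave 1 to 1 for the change from 1 day to 3 days, from 3 days to 1 week and from 1 week to 3 weeks, and 4 to 5 for that from 1 day to 3 weeks, where Igf2 joined with a log2 difference of 1 without pair 2 at 1 day. Leaving out a sample gave 0 to 0 against naive samples. At 3 days Igfbp2 was lost in 5 of 16 settings, where it was -0.99 to -0.89, and was -1.43 without pair 5, and Igfbp4 was gained without pair 2 or 5. The median log2 fold change of all probe sets at 3 days was 0.04 as deposited and -0.09 after the shift to a common median. On the dim probe set of Igf2 all 10 crushed samples at 1 day and 3 days were below 50, which limits how far its fall can be measured.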
